A study of Mus musculus with 8 samples.

Results

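Adipokines are proteins that fat cells release into the blood or the surrounding tissue. The account below covers 10 genes of this kind in white adipose tissue of mice: Adipoq, Lep, Retn, Cfd, Agt, Rbp4, Nampt, Retnla, Apln and Rarres2. They were chosen by name, and probes were assigned to them through the transcript accession printed beside each probe. All 10 were measured, by 11 probes, among 25092 gene names that passed a filter on dim spots. Retn had 2 probes, and the others had 1 probe each.

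White adipose tissue was compared between 4 Ad/NICD mice and 4 wild-type (WT) mice. NICD is the intracellular domain of the Notch receptor, the part that is released when the receptor is activated and that moves to the nucleus to switch on genes together with the DNA-binding protein RBPJ. All mice were 5 weeks old, of mixed 129 × C57BL/6 strain, and fed regular chow, and each sample is labelled as a biological replicate. The sample labels name no promoter for NICD, no fat depot and no sex. Each of 4 microarrays, all on 1 slide, carried 1 Ad/NICD and 1 WT sample of the same replicate number, labelled with a red (Cy5) and a green (Cy3) dye.

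Directions are likely rather than settled. Red was read as Ad/NICD because the Ad/NICD columns of the authors' value table hold the red signal of each array, and because the labelling protocol gives Cy5 to the test samples. The dye tags of the single samples say the opposite, and under those tags every sign below would turn and the levels of the groups would be exchanged. No array had the dyes swapped, so genotype and dye cannot be told apart. The values are log2 levels after loess normalization within each array, and a difference of 1 between Ad/NICD and WT on this scale is a 2-fold difference. Levels of different genes come from different probes and were not set against each other.

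Of facts that touch all 10 genes, the array of replicate 4 stood apart. In both its samples Xist, the RNA of the inactive X chromosome, was low, at a log2 level of 5.87 in the Ad/NICD and 6.12 in the WT sample. In the other samples it lay between 10.15 and 10.45 in Ad/NICD and between 10.19 and 10.27 in WT tissue. The Y-linked gene Eif2s3y was high in both samples of replicate 4, at 10.82 in Ad/NICD and 10.94 in WT tissue, and at most 6.06 elsewhere. Skeletal muscle markers also differed most on that array, with a median level of 9.70 in the Ad/NICD and 13.34 in the WT sample, and a median ratio of -3.91 over 11 genes. As a check of the labels, Heyl, a gene that Notch switches on, had log2 ratios of Ad/NICD over WT of 2.30, 3.21, 2.76 and 3.22 (mean 2.87 ± 0.22, SE, n = 4; limma with Benjamini-Hochberg adjustment, adjusted p = 0.0399). Of the 6 genes listed for this check, 5 lay above and 1 below 0 on average, and only Heyl passed in limma. The median ratio of the 6 was 0.14, 0.49, 0.29 and 0.76 on replicates 1 to 4. Notch1 itself had ratios of 1.24, 0.35, -0.01 and -0.14, and where its probe lies relative to the transgene was not examined.

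As background, mature white adipocytes store fat and act as an endocrine organ. Adiponectin (Adipoq) raises insulin sensitivity, leptin (Lep) reports fat stores to the brain, and in rodents resistin (Retn) lowers insulin sensitivity. Adipsin (Cfd) is complement factor D, the protease that starts the amplification loop of the alternative complement pathway. Several of these genes are switched on late in adipocyte differentiation by PPARγ and C/EBP transcription factors.

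Promoters are shown for the genes the account turns on: Adipoq, Retn and Rbp4, which had lower mean ratios, and Lep, which had not. Each runs from 250 bases before to 50 bases after the annotated start, from RefSeq on build GRCm38.p6. Capitals mark matches to 5 short motifs, searched on both strands. The windows are chr16:23146286-23146585 (plus strand) for Adipoq, chr8:3655520-3655819 (plus strand) for Retn, chr19:38124762-38125061 (minus strand) for 1 of the 2 starts listed for Rbp4, and chr6:29059971-29060270 (plus strand) for Lep.
Adipoq: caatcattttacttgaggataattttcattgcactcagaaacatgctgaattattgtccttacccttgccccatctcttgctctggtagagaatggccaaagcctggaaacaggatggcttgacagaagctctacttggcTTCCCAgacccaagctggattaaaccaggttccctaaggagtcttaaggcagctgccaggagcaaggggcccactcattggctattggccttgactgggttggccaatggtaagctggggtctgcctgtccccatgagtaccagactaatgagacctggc
Retn: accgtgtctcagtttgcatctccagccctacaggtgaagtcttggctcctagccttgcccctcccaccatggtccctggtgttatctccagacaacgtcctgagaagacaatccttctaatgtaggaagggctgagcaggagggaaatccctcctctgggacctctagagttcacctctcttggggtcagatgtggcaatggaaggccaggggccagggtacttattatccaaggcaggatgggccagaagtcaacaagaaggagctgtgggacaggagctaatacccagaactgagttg
Rbp4: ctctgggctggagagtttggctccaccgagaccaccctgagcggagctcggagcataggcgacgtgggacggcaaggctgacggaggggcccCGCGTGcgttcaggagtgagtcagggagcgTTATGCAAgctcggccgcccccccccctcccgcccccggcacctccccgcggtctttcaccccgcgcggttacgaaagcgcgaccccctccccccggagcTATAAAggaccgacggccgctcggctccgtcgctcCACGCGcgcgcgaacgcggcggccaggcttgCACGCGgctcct
Lep: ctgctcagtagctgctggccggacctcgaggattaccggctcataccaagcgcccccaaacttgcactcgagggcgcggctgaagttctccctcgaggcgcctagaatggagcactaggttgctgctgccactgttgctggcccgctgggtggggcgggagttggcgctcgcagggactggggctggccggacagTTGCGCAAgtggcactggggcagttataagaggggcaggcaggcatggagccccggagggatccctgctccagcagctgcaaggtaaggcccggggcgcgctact

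Promoters of 9 of the 10 genes were in the table, all but that of Rarres2. The core that RBPJ binds, TGGGAA, matched in the windows of Adipoq and Nampt, and 25.6% of 32817 windows of all genes held it. A C/EBP-like motif, TTGCNNAA, matched in those of Lep, Rbp4 and Retnla (10.8% of all windows), and the TATA box, TATAAA, in those of Agt, Rbp4 and Retnla (13.6%). The class C box of Hes repressors, CACGCG, matched in those of Rbp4 and Nampt (9.26%), and the E-box CACGTG in none (7.15%). All matches of Rbp4 lie in the window shown, and that of its other listed start, chr19:38125272-38125571, matched none of the 5. Nor did the windows of Retn, Cfd and Apln. The motifs were picked with results of these data known, overlap between motifs was not removed, and a match only says that the letters are there.

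Mean ratios were below 0 for 8 of the 10 genes, a side on which 51.6% of all gene names lay, and 3 genes, Rbp4, Retn and Cfd, were lower by 2-fold or more on average (0.646% of all gene names). Lep differed little, and Rarres2 was higher in Ad/NICD tissue. The median over the 10 genes was -0.54, against -0.01 over all gene names. Levels of the groups did not overlap for 4 genes that were lower in Ad/NICD tissue (Rbp4, Retn, Cfd and Apln; 5.58% of all gene names) and 1 that was higher (Rarres2; 4.22%), and they overlapped for the other 5.

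**Figure D1:**
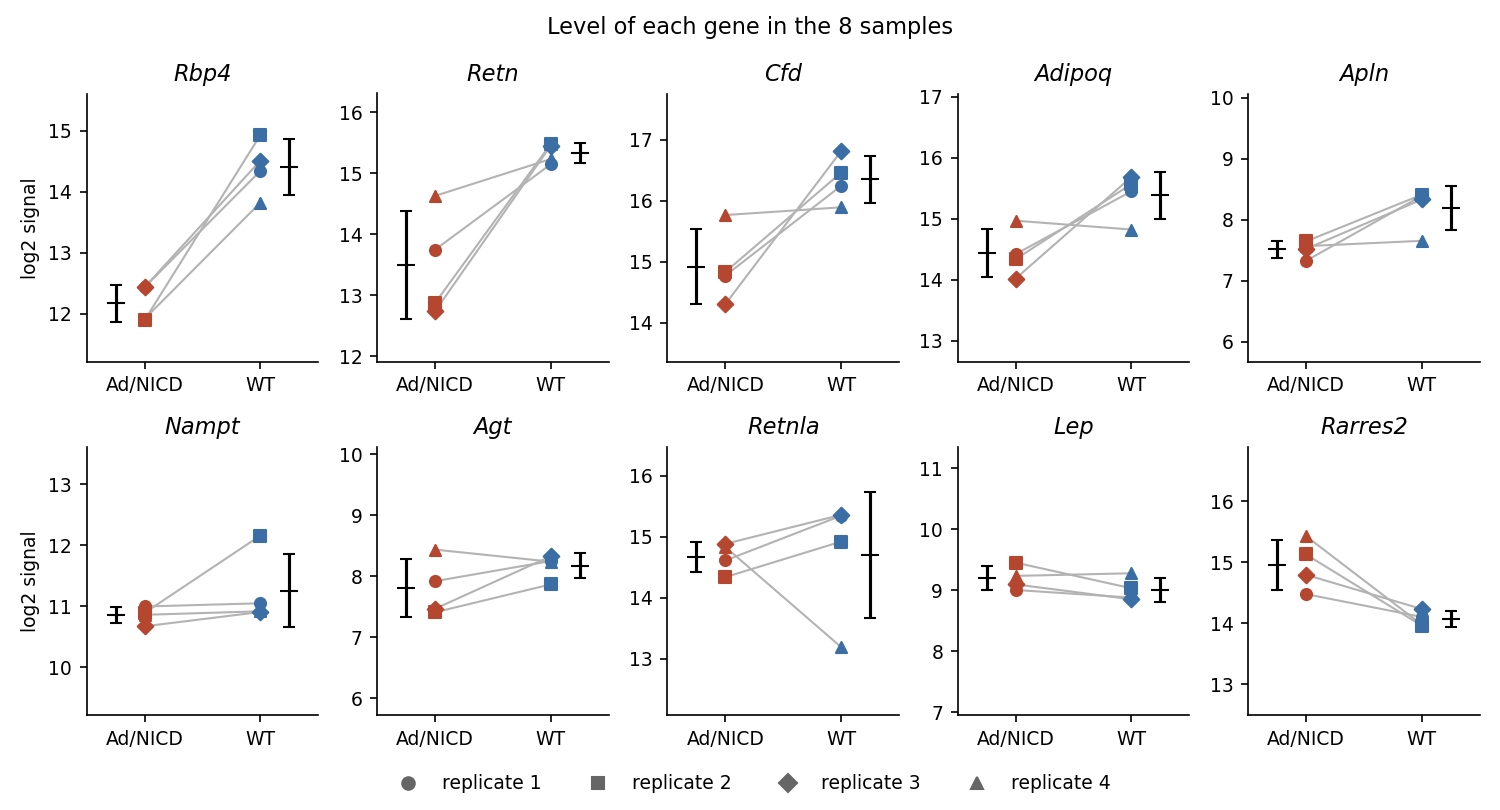
Log2 level of each of the 10 genes in the 4 Ad/NICD samples (left in each panel) and the 4 WT samples (right), 1 point per sample, with the mean and SD (bars) and grey lines between the samples of 1 array. Levels do not overlap between the groups for Rbp4, Retn, Cfd, Apln and Rarres2.

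No gene of the 10 passed the test of the ratios over all gene names (limma, Benjamini-Hochberg adjusted p of 0.05), which called 12 gene names in all, or 0.0478%, 7 higher and 5 lower. At an unadjusted p under 0.05 there were 5 lower genes (Rbp4, Retn, Apln, Cfd and Adipoq; 8.99% of all gene names) and 1 higher (Rarres2; 6.26%). With the channels taken as 8 samples and the array as a random block, limma called 2 of the 10, Rbp4 and Retn, both lower, against 1.13% of all gene names called lower. Without the block it called 1, Rbp4, against 0.622% called lower. Across the results, SE is the standard deviation over the 4 arrays divided by the square root of their number.

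Rbp4 encodes retinol-binding protein 4, which carries vitamin A in the blood and is released by liver and fat. Its log2 level was 12.44, 11.90, 12.44 and 11.92 in the Ad/NICD samples, against 14.35, 14.93, 14.51 and 13.83 in the WT samples. Every Ad/NICD sample lay well below every WT sample, and on replicate 4, where the groups lay close for Cfd, Adipoq and Apln, the gap was as wide as on replicate 1. The means were 12.17 ± 0.31 in Ad/NICD and 14.40 ± 0.46 in WT tissue (SD, n = 4 each), a ratio of -2.23 ± 0.27 (SE), or 4.69-fold lower. The adjusted p was 0.0867 in limma's fit of the ratios, 0.00812 with the array as a random block and 0.0155 without a block. Liver markers were also lower: 3 of 7 listed genes were measured, all 3 below 0 on average, with a median level of 6.77 to 9.23 in Ad/NICD samples and 7.65 to 11.08 in WT samples. Albumin (Alb) had a mean ratio of -1.08 ± 0.29. The other listed genes, Apoa1, Ttr, Cyp3a11 and Apob, were not among the gene names that passed the filter on dim spots. Whether RNA of another tissue has a part in the Rbp4 ratio was not tested.

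Retn showed the next lowest ratio, and its promoter above held none of the motifs searched. Its log2 level was 13.74, 12.87, 12.73 and 14.63 in the Ad/NICD samples, against 15.15, 15.48, 15.45 and 15.23 in the WT samples. The WT samples lay close together and the Ad/NICD samples were spread, with replicate 4 the nearest to WT. The ratio was -1.83 ± 0.51 (SE, n = 4), or 3.56-fold lower, with an adjusted p of 0.156 in limma's ratio fit and 0.0471 with the random block. A second probe, which shares the transcript but is scored on its own spot, gave ratios of -1.24, -2.34, -2.28 and -0.58, with replicate 4 again the nearest to 0. Without replicate 4 the ratio of the first probe was -2.24, and without replicate 3 it was -1.54.

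Cfd was the brightest of the 10 genes, above 99.9% of gene names. It measured 14.77, 14.83, 14.30 and 15.76 in Ad/NICD samples, against 16.24, 16.46, 16.81 and 15.89 in WT samples. The groups did not overlap, but the highest Ad/NICD sample and the lowest WT sample, both of replicate 4, were only 0.13 apart. The ratio was -1.43 ± 0.49 (SE, n = 4), or 2.70-fold lower, and did not pass (limma, adjusted p = 0.198, and 0.0578 with the random block). Without replicate 4 it was -1.87, and without replicate 3 it was -1.08.

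Adipoq measured 14.42, 14.34, 14.02 and 14.97 in Ad/NICD samples, against 15.45, 15.57, 15.69 and 14.82 in WT samples. Replicates 1 to 3 were lower in Ad/NICD tissue by 1.03 or more, and replicate 4 was slightly higher, so the groups overlapped. The ratio was -0.95 ± 0.39 (SE, n = 4; limma, adjusted p = 0.249), -1.31 without replicate 4 and -0.71 without replicate 3.

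Lep was the fat hormone that differed least from WT among these 4. It measured 9.0, 9.45, 9.09 and 9.23 in Ad/NICD samples, against 8.88, 9.03, 8.85 and 9.27 in WT samples, each the mean of 10 spots of 1 probe. The groups overlapped, and 3 of the 4 arrays had a ratio above 0. The mean ratio was 0.19 ± 0.10 (SE, n = 4; limma, adjusted p = 0.416), which does not show that the genotypes are alike. With arrays centred on their median in place of loess, the ratio of Lep was -0.30, while the median over all gene names shifted to -0.32.

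Set against Lep on the same array, the ratio of Retn minus that of Lep was -1.53, -3.03, -2.96 and -0.56 on the log2 scale. Cfd minus Lep was -1.60, -2.05, -2.75 and -0.08. With arrays centred on their median in place of loess, replicate 4 had a ratio of 0.07 for Cfd and -0.21 for Lep, the other order. Adipoq minus Lep was -1.16, -1.65, -1.91 and 0.19, so that replicate 4 lay on the other side. Rbp4 minus Lep was between -3.46 and -1.86 on the 4 arrays. These gaps were singled out with the ratios known, and no test is given for them.

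**Figure D2:**
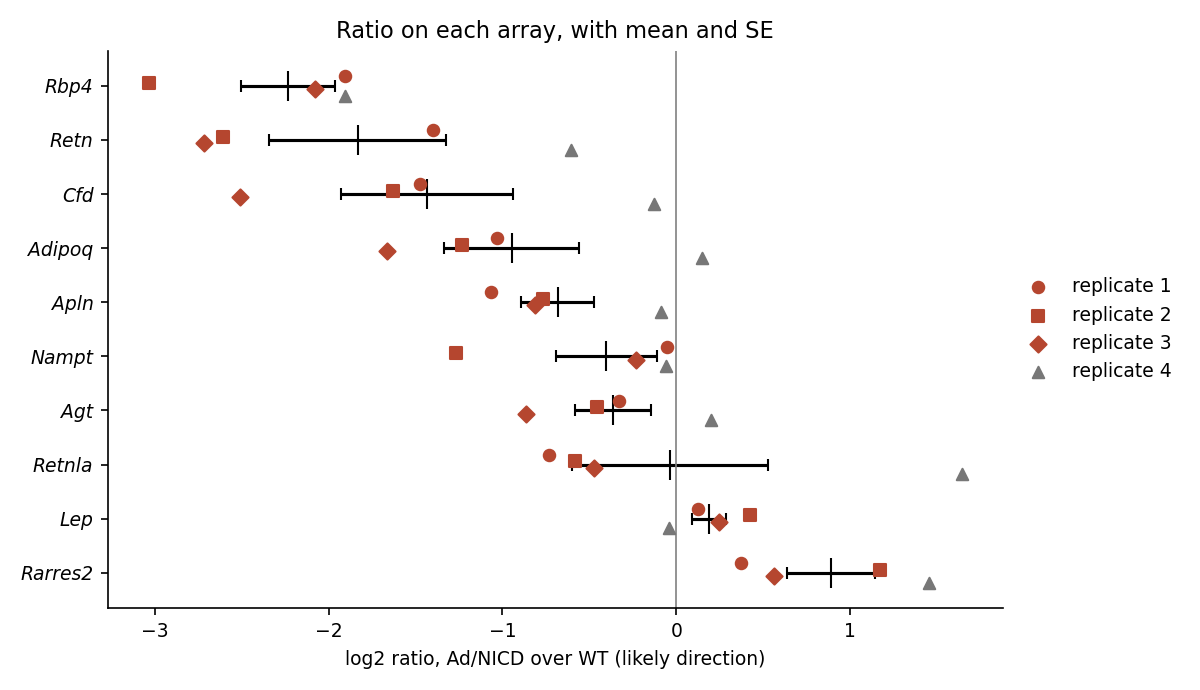
Log2 ratio of Ad/NICD over WT (likely direction) for each gene on each of the 4 arrays, with the mean (vertical bar) and SE (whiskers). Replicate 4, in grey, has the highest ratio of the 4 arrays for Retn, Cfd, Adipoq, Agt, Apln, Retnla and Rarres2, and for Rbp4 it lies at the same value as replicate 1, -1.91.

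Apelin (Apln) is a peptide hormone made by adipocytes and endothelial cells. Its level was 7.33, 7.65, 7.52 and 7.57 in Ad/NICD samples, against 8.40, 8.41, 8.33 and 7.66 in WT samples. The Ad/NICD samples were even, and the WT sample of replicate 4 lay near them. The ratio was -0.68 ± 0.21 (SE, n = 4), or 1.60-fold lower, with an adjusted p of 0.183 in limma's ratio fit. The foreground intensity of this dim probe was 67 to 133 in the red channel and 200 to 535 in the green channel, over a background of 19 to 20 and 42 to 52.

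Angiotensinogen (Agt), the precursor of angiotensin, measured 7.92, 7.41, 7.46 and 8.44 in Ad/NICD samples, against 8.25, 7.86, 8.33 and 8.24 in WT samples. The groups overlapped, with the highest value in an Ad/NICD sample (ratio -0.36 ± 0.22, SE, n = 4; limma, adjusted p = 0.403). Nampt, the enzyme that makes nicotinamide mononucleotide and is also released as visfatin, measured 10.99, 10.89, 10.67 and 10.86 in Ad/NICD samples, against 11.05, 12.16, 10.90 and 10.91 in WT samples. A single high WT sample, that of replicate 2, set most of its ratio of -0.40 ± 0.29 (SE, n = 4; limma, adjusted p = 0.466). Without that array the ratio was -0.11.

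Chemerin (Rarres2), a chemoattractant that binds the receptor Cmklr1, was the only gene of the 10 above 0 on all 4 arrays (11.2% of all gene names), and 5 genes were below 0 on all of them (13.3%). It measured 14.48, 15.13, 14.80 and 15.43 in Ad/NICD samples, against 14.11, 13.96, 14.24 and 13.98 in WT samples. All WT samples lay below all Ad/NICD samples. With arrays centred on their median in place of loess, its ratio on replicate 1 was -0.43, where the median over all gene names was -0.68. The ratio was 0.89 ± 0.25 (SE, n = 4), or 1.85-fold higher, and did not pass (limma, adjusted p = 0.163, and 0.0512 with the random block). Relative to Cfd on the same array, Rarres2 was higher by 1.58 to 3.07. Progenitor and fibroblast markers lay on the same side, with all 12 measured genes above 0 on average and a median level of 13.02 to 13.86 in Ad/NICD samples and 12.35 to 13.70 in WT samples. Their median ratio on the arrays was -0.37, 0.57, 0.21 and 1.19, and their part in the Rarres2 ratio was not tested.

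Retnla encodes RELMα, a relative of resistin made by adipose tissue and by alternatively activated macrophages. It measured 14.61, 14.33, 14.88 and 14.83 in Ad/NICD samples, against 15.34, 14.92, 15.36 and 13.19 in WT samples. Replicates 1 to 3 were lower in Ad/NICD tissue and replicate 4 was higher by 1.64, through a WT sample far below the others. The mean ratio was -0.04 ± 0.56 (SE, n = 4; limma, adjusted p = 0.978). It was -0.60 without replicate 4, and 0.11 to 0.19 when 1 of replicates 1 to 3 was left out instead. Macrophage markers had 8 of 14 genes above 0, a median level of 9.91 to 10.62 in Ad/NICD and 9.76 to 10.53 in WT samples, and array medians of -0.36, 0.42, -0.08 and 0.62. Retn and Retnla, members of the same small family, differed in ratio (Retn minus Retnla) by -0.67, -2.03, -2.24 and -2.25. Retnlg, the other family member measured, had ratios of -0.41, 0.36, 0.35 and 2.74.

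By array, 8, 8, 8 and 6 of the 10 genes were below 0 on replicates 1 to 4, and their medians were -0.88, -1.0, -0.84 and -0.05. Over replicates 1 to 3 alone, 8 genes were below 0 on every array (24% of all gene names) and the other 2, Lep and Rarres2, above 0 on every array (19.3%). With the levels of Xist and Eif2s3y given above, sex and replicate 4 cannot be told apart.

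The lower ratios came beside lower adipocyte markers. Of 20 such markers, none among the 10 genes, 18 were below 0 on average, and the median was -0.66. In limma's ratio fit 1 of them passed: Acvr1c, the receptor ALK7, which fell by 1.71 ± 0.13 (SE, n = 4; adjusted p = 0.0399). With the random block 3 passed, all lower: Acvr1c, Adrb3, the beta-3 adrenergic receptor (-1.87 ± 0.29, adjusted p = 0.0390), and Adig, adipogenin (-1.04 ± 0.23, adjusted p = 0.0225). The median level of these markers was 13.46 to 14.27 in Ad/NICD samples and 14.19 to 14.87 in WT samples. In such bulk tissue fewer adipocytes and less RNA per adipocyte cannot be told apart.

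The median ratio of the adipocyte markers on the arrays was -0.30, -1.36, -1.08 and -0.32. Measured from that median, Rbp4 lay at -1.60, -1.67, -1.0 and -1.58, and Retn at -1.10, -1.25, -1.64 and -0.28, below the markers on each array. Cfd lay at -1.17, -0.27, -1.43 and 0.20, and Adipoq at -0.73, 0.13, -0.59 and 0.47, on both sides of the markers. Lep was above the markers by 0.43, 1.78, 1.32 and 0.28, and Rarres2 by 0.68, 2.53, 1.64 and 1.77. Nampt was above them too, by 0.25, 0.09, 0.84 and 0.27. Rbp4 and Retn therefore lay below, and Lep, Nampt and Rarres2 above, the middle of the adipocyte markers on each array. That is a description with no test.

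**Figure D3:**
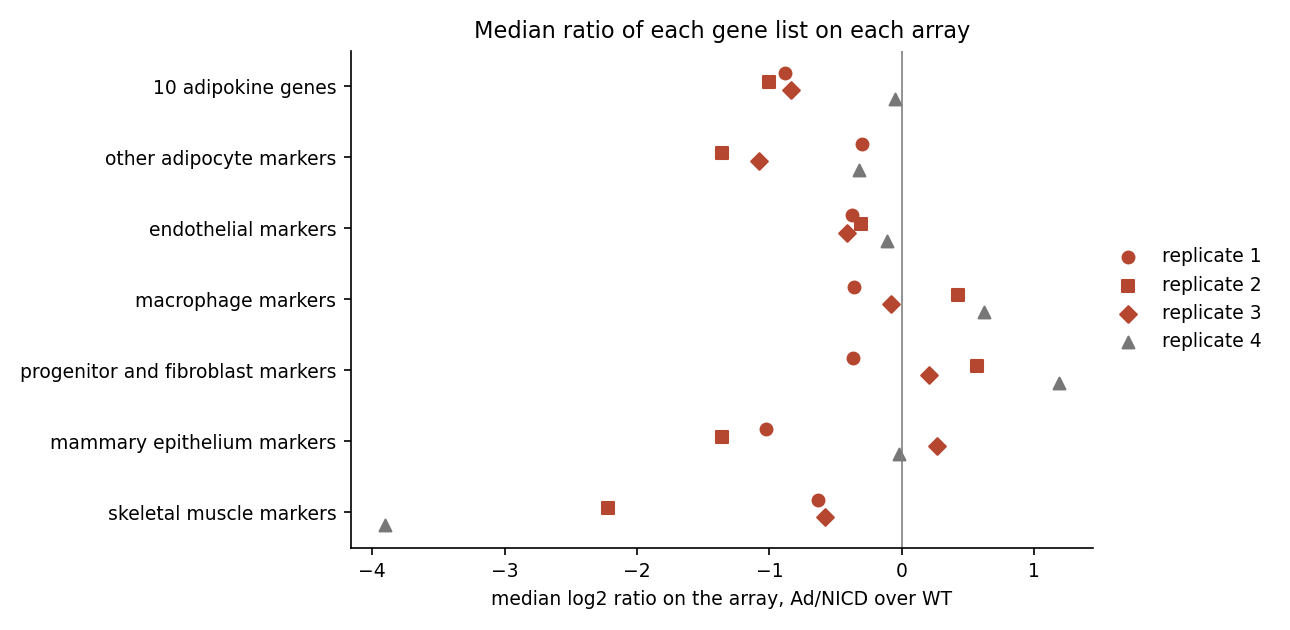
Median log2 ratio of Ad/NICD over WT (likely direction) of the 10 genes and of marker lists on each array, 1 point per array. The adipocyte markers, without the 10 genes, are below 0 on all 4 arrays, between -1.36 and -0.30, and skeletal muscle markers reach -3.91 on replicate 4.

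Markers of other cell types also differed between the groups and between the arrays. Endothelial markers were below 0 in 11 of 12 genes (median -0.26), with median levels of 10.06 to 10.35 in Ad/NICD and 10.48 to 10.59 in WT samples. With the random block limma called 1 of them lower and 1 higher, the latter being the only gene above 0. Mammary epithelium markers were below 0 on average in 9 of 9 (median -0.44), with array medians of -1.02, -1.36, 0.27 and -0.02. Their median levels were 6.45 to 10.56 in Ad/NICD and 6.34 to 9.93 in WT samples, the lowest of each group being replicate 4. Brown fat markers were split, 5 above and 4 below 0, with array medians of 1.21, -1.51, -0.12 and 0.17. Muscle markers were below 0 in 11 of 11, with median levels of 6.83 to 9.70 in Ad/NICD and 7.53 to 13.34 in WT samples. The part of these tissues in the ratios of the 10 genes was not tested.

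Of a list made up mostly of receptors for these hormones, 14 genes were measured, 7 above and 7 below 0, and none passed limma's ratio fit. The insulin receptor (Insr) had a ratio of -0.81 ± 0.18 and passed in the other limma fits (adjusted p = 0.0207 with the random block and 0.0316 without a block). Adipor2 and Adipor1, the adiponectin receptors, had ratios of -0.40 ± 0.08 and -0.23 ± 0.08, and Cap1, a receptor reported for human resistin, 0.39 ± 0.20 (SE, n = 4 each). A further list was made up mostly of other secreted proteins of adipose tissue, not all of them from adipocytes. Of its 31 measured genes, 16 were above and 15 below 0 (median 0.03), and none passed the ratio fit. The growth factor Nrg4 had a ratio of -1.33 ± 0.27 and passed with the random block only (limma, adjusted p = 0.0308). A list of C1q/TNF-related relatives of adiponectin also held the complement gene C1qa. It showed no common side either, with 7 of 12 above 0 (median 0.13), C1qtnf4 at -0.40 ± 0.08 and C1qtnf12 at -0.67 ± 0.24.

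Genes that work beside each hormone were described in the same way. Complement genes around factor D had 7 of 11 above 0 (median 0.25), with C4b at 0.54 ± 0.23 and factor B (Cfb), the substrate of factor D, at 0.35 ± 0.26, and none passed in limma. Of 12 genes of the renin-angiotensin system around Agt, 7 were above 0 (median 0.07) and none passed. Among 14 genes of retinoid handling around Rbp4, 9 were below 0 (median -0.03), and Cyp26b1, which breaks down retinoic acid, was higher in Ad/NICD tissue by 0.73 ± 0.13 and passed outside the ratio fit (limma, adjusted p = 0.0181 with the random block and 0.0316 without a block). NAD synthesis genes around Nampt were below 0 in 8 of 9 (median -0.16), with Nmnat3 at -0.51 ± 0.05 (limma, adjusted p = 0.0220 with the random block and 0.0431 without a block).

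Genes for folding and release of adiponectin were split, 5 above and 5 below 0, and the chaperone Hspa5 was higher by 0.57 ± 0.10 (limma, adjusted p = 0.129 in the ratio fit, 0.0188 with the random block and 0.0316 without a block). Of 15 transcription factors that act on adipokine genes, 10 were below 0 (median -0.04). Rxra, the partner of PPARγ, had a ratio of -0.47 ± 0.06 (limma, adjusted p = 0.0254 with the random block and 0.0466 without a block). Cebpa, whose product binds C/EBP motifs, had ratios of -0.79, -1.11, -1.41 and -0.40, a mean of -0.93 ± 0.22 (SE, n = 4; limma, adjusted p = 0.136, and 0.0614 with the random block).

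The genes most like Retn in log2 level over the 8 samples, by Pearson's r among 15822 gene names with a RefSeq symbol, were Bscl2 (0.990), Emc9 (0.989) and Sh3bp5 (0.988). For Cfd they were Pygb (0.982), Adipoq (0.980) and Wbp2 (0.978), and for Adipoq they were Cfd (0.980), Pon3 (0.979) and Prnp (0.975). Lep had Rasgrf2 (0.954), Fzd4 (0.953) and Riox2 (0.944). Retn and Cfd correlated at 0.950, and Lep and Adipoq at -0.575. The 8 points share arrays and hold the difference between the genotypes, so these values only rank likeness.

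The brightness of the spots bears on several of these genes, since 5 of the 10 (Cfd, Adipoq, Retnla, Rarres2 and Retn) were in the brightest 2% of gene names. The scanner tables hold no saturation flags. Intensities ran past 65535, the largest value of a 16-bit scan, on 3 of 4 arrays in more than 1 green spot. On replicates 1 to 4 there were 1, 0, 0 and 1 such spots in the red Ad/NICD channel, against 153, 34, 17 and 1 in the green WT channel. The brightest spot of each channel stood alone, with no other spot within 1% of its value. Within 1% under 65535 lay 4, 0, 1 and 0 green spots on replicates 1 to 4, and no red spot. Whether bright signals were compressed was not tested, since these counts look only at the spots next to 2 values. Of the 10 genes, Adipoq, Cfd, Retn and Retnla were above 65535 in green on replicate 1, and Cfd also on replicates 2 and 3. For Cfd the foreground intensity was 21092, 25851, 16283 and 44904.5 in the red Ad/NICD channel, against 150094, 110502, 131934 and 52330 in the green WT channel.

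**Figure D4:**
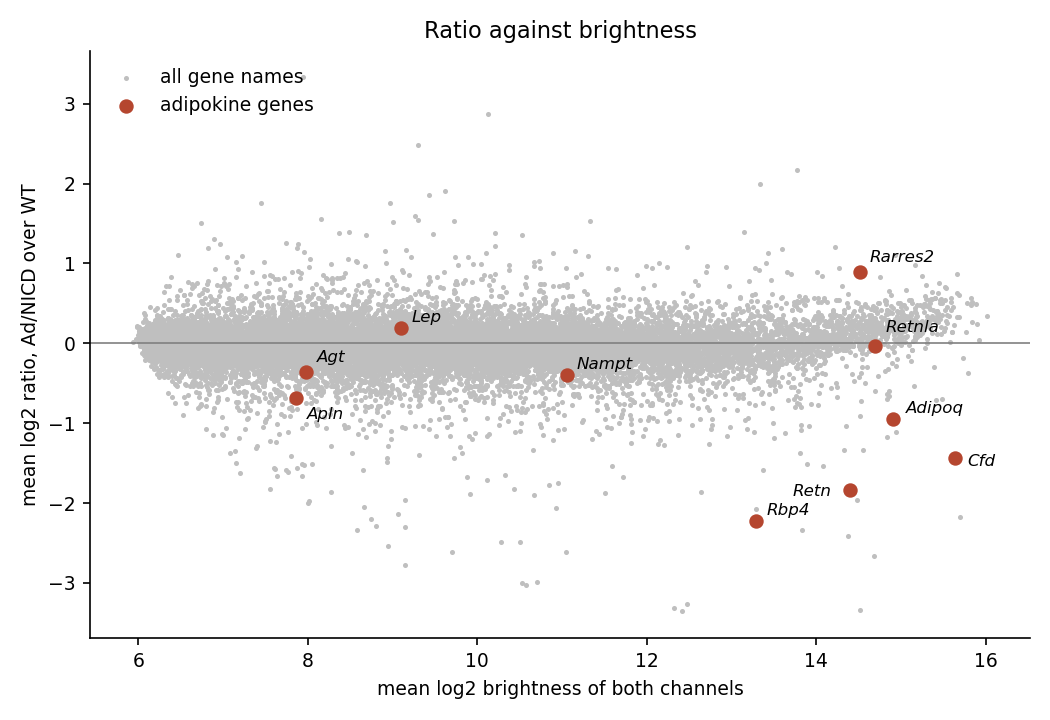
Mean log2 ratio of Ad/NICD over WT (likely direction) against mean log2 brightness for all gene names (small points) and the 10 genes (labelled). Cfd, Adipoq, Retnla, Rarres2 and Retn sit at the bright end, on both sides of 0.

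Loess removes a curve of ratio on brightness, and at the bright end that curve differed between arrays. Among the brightest 1% of gene names (251) it was -0.73, -0.13, -0.12 and 0.15 on replicates 1 to 4, and the median ratio left after loess was 0.26, 0.36, 0.26 and 0.23. Of the 10 genes, Cfd and Adipoq belong to this brightest set, and the part of brightness in their ratios was not tested. With spots above 65535 left out, a choice made after seeing the data, Retn had a ratio of -1.98 and Adipoq of -0.92 over the 3 arrays left to each, and Cfd had no value, since only 1 array remained.

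**Figure D5:**
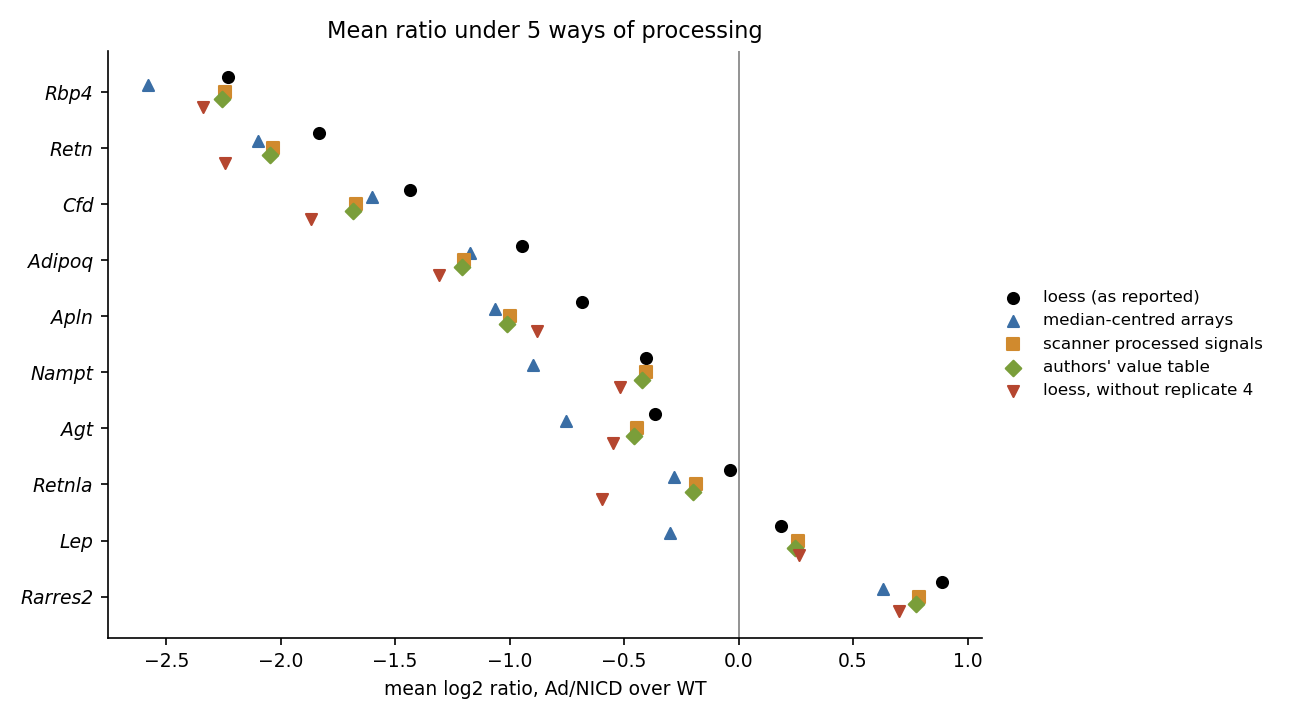
Mean log2 ratio of Ad/NICD over WT (likely direction) of each gene under loess, median-centred arrays, the scanner's processed signals, the authors' value table, and loess without replicate 4. Of the 10 genes, only Lep lies on different sides of 0 among these 5, at -0.30 with median-centred arrays and above 0 in the others.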

How the data were processed

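Total RNA of white adipose tissue from 4 Ad/NICD and 4 WT mice was hybridised to 4 Agilent arrays. Signal extraction used Agilent Feature Extraction 11.5, per the submitters' processing notes. Spot tables, as deposited, give intensity (median foreground and background per spot, and processed signals) and a log10 ratio of red over green. The authors' value table holds log2 values, which matched 1 channel per column with an SD of at most 0.00277 (0.407 or more against the other channel), with column medians of -3.84 to -3.52; its centring is not stated in the sources used here. Same-numbered Ad/NICD and WT files were identical.

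From 55681 non-control probes (28026 with a RefSeq symbol), normexp background correction (offset 50) and loess within arrays were run in limma 3.58.1 (R 4.3.3). Probes well above background in either channel on at least 3 arrays were kept, with the brightest probe per gene name. The flag of array 1 was rebuilt from negative controls. The share of spots well above background was 55.6% to 65.9% per channel, and the 4 arrays limit the precision. The log2 ratios were tested against 0 with lmFit and eBayes and Benjamini-Hochberg adjustment over 25092 gene names. Levels were taken after scaling the average brightness between arrays (Aquantile), and the fits over 8 channels used them. The script was tested on simulated data.

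Same-numbered samples shared an array, so the number pairs them by construction; correlations of their deviations from the group means were 0.18, 0.17, 0.56 and 0.53. The 10 genes, the gene lists, the motifs and the tests were chosen with earlier results of these data known. Named beside the 10 genes are, for part of the lists, genes past a threshold and otherwise up to 4 with the lowest unadjusted p. The 3 gene names most like Retn, Cfd, Adipoq and Lep are also named. For other lists, such as the endothelial markers, only counts, medians and levels are given. Alternatives covered background correction, normalization, source of ratios, filter, probes per gene, variance model, array block and left-out replicates.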

Additional observations from a re-analysis of the deposited data

Results flagged for a closer look

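In groups of 4 values, 5 of 30 sets of levels or ratios of the 10 genes held a sample that lay far from the other 3 by Dixon's gap test at its usual critical value. Chance gives about 1 in 20 such sets. For Rbp4 it was the ratio of replicate 2, at -3.03, below the others, which lay between -2.08 and -1.91. For Nampt it was replicate 2 in both the WT level, at 12.16, and the ratio, at -1.27. For Retnla the ratio of replicate 4, at 1.64, lay on the other side of 0 from the rest. For Apln the WT level of replicate 4, at 7.66, was below the other WT samples. Causes were not tested.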

How the results depend on the processing

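All 16 alternatives left the sign unchanged for Adipoq, Agt, Apln, Nampt, Rarres2, Rbp4 and Retn, as did the 15 that gave Cfd a value. The variance model and the array block change only the test, so they could not turn a mean ratio. Nor could the filter or the averaging of probes for genes with 1 kept probe. Leaving out spots above 65535 equalled leaving out replicate 1 for Adipoq, Retn and Retnla, and left genes without such spots unchanged. Lep turned to -0.30 with median centring, where the median of all gene names was -0.32. Retnla turned to 0.19 with spots above 65535 left out (a choice made after seeing the data), and ran from -0.60 without replicate 4 to 0.14 without replicate 2, 0.11 without replicate 3 and 0.19 without replicate 1. The median of the 10 genes was -0.98 with median centring, and -0.74 to -0.49 with 1 replicate left out.

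In limma the ratios called 12 gene names (7 higher, 5 lower). The replicate block mattered most: with the array as a random replicate block 496 were called (212 higher, 284 lower), 2 of them among the 10 genes, and with no replicate block 256 (100 higher, 156 lower), 1 among the 10. No other alternative called any of the 10. The scanner's processed signals gave 4 (3 higher, 1 lower) and the authors' value table gave 3 (2 higher, 1 lower). Median centring, no filter and the trend and robust settings gave 0, with 9615, 5092 and 2896 at an unadjusted p under 0.05. Leaving out 1 replicate gave 0 to 43: 0 without replicate 1, 2 or 3 (3565, 2535 and 1989 at an unadjusted p under 0.05), and 43 without replicate 4 (9 higher, 34 lower). The cause of these shifts was not tested, except that no filter tests more gene names (36799). Adjusted p over the alternatives ran from 0.00812 to 0.568 for Rbp4 and from 0.0471 to 0.593 for Retn. Of 367 medians of gene lists under alternatives, 15 moved by more than 1 SD, 10 of them downward with median centring.

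The planned settings on saturation flags and on the slide were not run, since the tables hold no such flags and all arrays lie on 1 slide. The SE of the ratio over 4 arrays, which limit every test, was 0.56 for Retnla, 0.51 for Retn and 0.49 for Cfd, all bright probes, against 0.21 for Apln and 0.22 for Agt, the dimmest of the 10. For Adipoq and Rarres2, which are also bright, it was 0.39 and 0.25, so the SE did not follow brightness alone.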
